A study of Homo sapiens with 16 samples.

Results

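Untreated WT THP-1 cells were profiled by ChIP-seq for H3K27ac, the acetylation of lysine 27 on histone H3, in 2 of the 16 libraries of the series. Their members were taken as every window of the deposited table, 151654 windows of 1000 bp on hg38, ranked by level with no contrast to any other condition. THP-1 is a human cell line grown from a monocytic leukemia that carries the KMT2A::MLLT3 fusion. The WT cells carried Cas9 without a knockout of USP18, grew in medium with serum and received no interferon. Both libraries were labelled as biological replicates and were made with 1 antibody to the mark from Active Motif. THP-1 is 1 leukemia line, so the values describe that line and not monocytes in general.

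H3K27ac is written by the acetyltransferases EP300 and CREBBP and lies on nucleosomes beside active promoters and enhancers. Acetylation neutralizes the charge of the histone tail and is read by bromodomain proteins, which recruit the transcription machinery. Monocytic cells are known for enhancers opened by PU.1 (encoded by SPI1), C/EBP and RUNX factors. In KMT2A-rearranged leukemia the fusion protein keeps the late HOXA genes and their partners active.

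Each window was centred on a peak of open chromatin called by the authors in at least 1 of 8 ATAC-seq libraries of WT and USP18-deficient cells with and without interferon. The ATAC-seq and input libraries themselves were not analysed here. Of the 151654 windows, 94590 were open in both untreated WT ATAC-seq peak lists, 22684 in 1 of them and 34380 in neither. A level is given in CPM, the tags of a window per 1000000 tags in all windows of that library. All windows had the same length, so levels can be compared between genes. A proximal window lay within 3000 bp of a transcription start site (TSS) and a distal window farther away. A window was called acetylated when it reached 4 times the tag density outside all windows in both libraries, and at or under background when it did not exceed 1 times that density in either.

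The 2 libraries held 24712371 and 28198188.5 tags in all, and 9167708.5 and 10291674.5 tags in windows. The density outside windows was 6.16 and 7.07 tags per 1000 bp, so a call of acetylated needed about 24.7 and 28.3 tags. Across all windows the libraries correlated with a Pearson r of 0.948 on the log2 scale and a Spearman coefficient of 0.923, a description over windows that share 2 libraries. The 10 strongest windows were the same in both libraries, as were 94 of the 100 strongest and 925 of the 1000 strongest. The coefficient of variation between libraries had a median of 38.4% below 1 times the outside density and 3.75% above 50 times. Ranks of strong windows were therefore repeatable, and the order among weak windows was not resolved at this depth. No test was run, because a single group of 2 libraries was described.

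To show what strong and weak open windows look like, stretches around a motif match were read from hg38, with the match in capitals. The motifs searched were the PU.1 sequence GAGGAAGT and the C/EBP sequence TTGCNNAA, in which N is any base, and a CTCF consensus, on both strands of the central 200 bp. CTCF is the zinc finger protein that binds insulators and the anchors of chromatin loops. Examples of strong distal windows with a PU.1 match were taken outside a dense stretch of chromosome 1. Other parts of the genome were also left out of this choice, so stronger windows with a match may exist. The examples were near BCL2L10 at chr15:52137852-52137919, near THEMIS2 at chr1:27885172-27885239 and near SEPHS2 at chr16:30458907-30458974, each on the plus strand.
BCL2L10: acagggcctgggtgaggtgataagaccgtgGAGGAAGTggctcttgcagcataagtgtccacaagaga
THEMIS2: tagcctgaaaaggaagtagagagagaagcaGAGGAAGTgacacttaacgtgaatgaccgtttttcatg
SEPHS2: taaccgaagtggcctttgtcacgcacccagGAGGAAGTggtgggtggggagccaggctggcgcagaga

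Examples with a C/EBP match, chosen in the same way, were near PP2672 at chr1:234775675-234775742, near LYST at chr1:235938812-235938879 and near MIR4487 at chr11:47394913-47394980, each printed on the plus strand.
PP2672: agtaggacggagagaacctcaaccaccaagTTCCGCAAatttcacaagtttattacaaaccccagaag
LYST: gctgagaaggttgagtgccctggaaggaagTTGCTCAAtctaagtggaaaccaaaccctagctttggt
MIR4487: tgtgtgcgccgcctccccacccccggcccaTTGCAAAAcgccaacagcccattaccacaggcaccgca

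Windows at the other end of the range were open in both WT peak lists, had a CTCF match and lay at or under background. Those with the highest opening score, the peak score that the authors' peak caller gave the merged ATAC-seq peak, were near PRR7 at chr5:177454545-177454616, near WTIP at chr19:34501706-34501777 and near LINC00456 at chr13:97110050-97110121, each on the plus strand.
PRR7: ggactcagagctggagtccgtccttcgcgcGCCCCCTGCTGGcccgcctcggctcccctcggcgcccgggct
WTIP: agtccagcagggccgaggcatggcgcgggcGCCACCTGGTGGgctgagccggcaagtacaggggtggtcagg
LINC00456: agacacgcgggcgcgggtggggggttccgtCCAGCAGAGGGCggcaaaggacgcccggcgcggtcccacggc

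The levels behind these sequences lay far apart. The PU.1 windows measured 90.7 and 93.8 CPM near BCL2L10, 86.2 and 95.3 CPM near THEMIS2 and 85.4 and 87.4 CPM near SEPHS2 in replicates 1 and 2. The C/EBP windows measured 160.4 and 156.0 CPM near PP2672, 131.9 and 139.2 CPM near LYST and 138.5 and 126.3 CPM near MIR4487. The CTCF windows held 5 and 5.5 tags near PRR7, 2 and 7 tags near WTIP and 1 and 2.5 tags near LINC00456, with opening scores of 105.3, 93.7 and 85.8. The windows near BCL2L10 and THEMIS2 had lower opening scores, 90.8 and 39.6, than that near PRR7. Among all 151654 windows the PU.1 letters were found in 6.41%, the C/EBP letters in 16.4% and the CTCF consensus in 3.78%. A match is a description of the letters, not a bound site.

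Of all windows, 54328 (35.8%) were acetylated and 23681 (15.6%) lay at or under background in both libraries, with 73645 (48.6%) in between. The number at or under background depended on the threshold: it was 4920 at 0.5 times and 60295 at 2 times the outside density, and 35538 to 35608 when 1 library alone had to meet the threshold. The 31412 proximal windows made up 20.7% of the table and held 44.4% of its tags. Among them, 20015 (63.7%) were acetylated, against 34313 (28.5%) of the 120242 distal windows. The median was 6.92 CPM for proximal and 1.32 CPM for distal windows. Distal windows were more numerous among the acetylated ones, but single proximal windows were stronger.

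**Figure D1:**
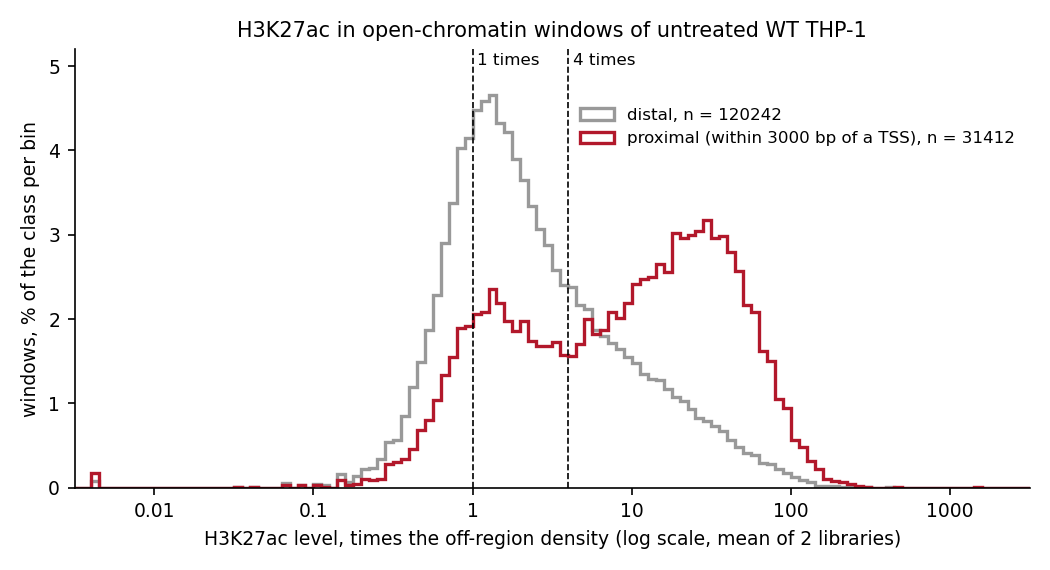
Histogram of the H3K27ac level of proximal and distal windows of untreated WT THP-1, as times the density outside windows on a log axis (mean of 2 libraries), in percent of each class per bin, with the lines at 1 and 4 times. The proximal windows form a broad group above 4 times (63.7% acetylated) and a smaller one near 1 times, whereas the distal windows peak near 1 times with a long tail to the right. Windows at 0 are drawn at the left edge.

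The level fell with distance from the TSS. Windows within 200 bp had a median of 10.7 CPM and 74.9% were acetylated, and windows between 200 and 1000 bp had 7.65 CPM and 65.5%. Between 1000 and 3000 bp the median was 1.88 CPM with 40.1% acetylated, close to the 1.55 CPM and 32.8% found between 3000 and 10000 bp. Beyond 100000 bp it was 0.986 CPM, with 22.4% acetylated and 26.1% at or under background. The steepest change thus lay inside the proximal class, near 1000 bp.

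Openness in untreated WT cells went with the mark. Of windows open in both WT lists 45.2% were acetylated and 11.6% lay at or under background. Of windows in neither list 17.99% were acetylated and 23.6% lay at or under background. A window outside the WT lists had been called in a USP18-deficient or interferon-treated library, yet 6186 of these carried the mark in untreated WT cells. Windows can overlap and share tags with a neighbour. Of the non-overlapping windows in neither list, 3660 of 28577 (12.8%) were acetylated.

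The signal was concentrated. The strongest 1% of windows (1517) held 14.2% of the tags in windows, the strongest 5% held 39.6% and the strongest 10% held 57.6%. Part of that came from 1 place in the genome, chromosome 1 from 39 to 44 Mb, which held 110 of the 1517 strongest windows. Without it the strongest 1% held 12.6%.

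All of the 10 strongest windows of the table lay in that stretch, with 46 of the 50 strongest and 62 of the 100 strongest. Its 728 windows, 589 after overlapping windows were reduced to 1, made up 0.467% of the non-overlapping windows and held 3.35% of their tags. The strongest was the promoter of CAP1, which encodes an actin-binding protein of the cyclase-associated family, at chr1:40039518-40040518. It measured 1312 CPM in replicate 1 and 1329 CPM in replicate 2 (mean 1321 ± 11.98, SD, n = 2), or 1943 times the outside density. The 150 bases before the CAP1 start in RefSeq (GRCh38.p14, chr1:40040090-40040239, plus strand) lie inside this window and held none of the 12 motifs searched.
CAP1: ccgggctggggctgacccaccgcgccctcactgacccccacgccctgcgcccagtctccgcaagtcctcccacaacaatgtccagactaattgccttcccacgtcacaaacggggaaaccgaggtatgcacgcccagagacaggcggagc

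The next strongest proximal windows were those of NFYC-AS1 at 990.6 and 953.8 CPM, CITED4 at 731.9 and 720.4 CPM, and MFSD2A at 660.9 and 666.1 CPM. CITED4 encodes a coactivator that binds CREBBP and EP300, and MFSD2A a lipid transporter. A second window of CITED4, 2 windows of SMAP2 and windows of PPT1 (a lysosomal thioesterase), ZMPSTE24 (the protease that matures lamin A) and EXO5 (an exonuclease) completed the 10 strongest, with means of 455.8 down to 305.7 CPM. The 2 libraries gave the same order for all 10. In the same stretch the promoter of MYCL, a MYC family gene, measured 32.8 and 27.9 CPM, or 44.7 times the outside density. It was thus acetylated, but below these 10 windows.

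The strongest distal windows came from the same place. An intron of CAP1 18671 bp after its start measured 735.9 and 696.4 CPM, and a second one 24165 bp after the start measured 675.9 and 671.9 CPM. A window in SMAP2 had 552.5 and 546.7 CPM and a window at -20602 bp from the start of MFSD2A had 512.5 and 515.7 CPM. Windows near LOC101929536 and MIR6079 followed. Outside the stretch, 2 windows of the 10 strongest distal ones lay in repeated sequence: the window assigned to PROS1 at chr3:93470196-93471196, with 487.7 and 484.7 CPM, in a satellite beside the centromere, and the one assigned to EMBP1 at chr1:125179690-125180690, with 295.0 and 291.5 CPM. Of all runs of 32 bases in these windows, 47.1% and 96.7% occurred more than once in hg38, against 0.309% and 7.53% in the 2 CAP1 windows and 30.9% in the LOC101929536 window. Reads in such sequence can belong to other copies, so the values of PROS1 and EMBP1, and in part that of LOC101929536, are uncertain. The nearest TSS of PROS1 and EMBP1 each lay over 500000 bp away.

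In the centre of the stretch the weakest windows were high too. Between 40 and 41 Mb all 182 windows were acetylated, the lowest stood at 5.56 times the outside density and the 10th percentile was 13.8 times, against 0.657 times in the whole table. From 41 to 44 Mb the 10th percentile was between 3.15 and 3.70 times in each Mb, and it was 0.653 times from 38 to 39 Mb and 1.16 times from 44 to 45 Mb. The median opening score was 62.3 between 40 and 41 Mb, against 10.5 over the table, so the ATAC-seq peaks were high there as well. Levels were not corrected for the number of DNA copies, whose part in these values was not tested. Among 4418 bins of 500000 bp, only 2 had a 10th percentile above 10 times, and both lay between 40 and 41 Mb.

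**Figure D2:**
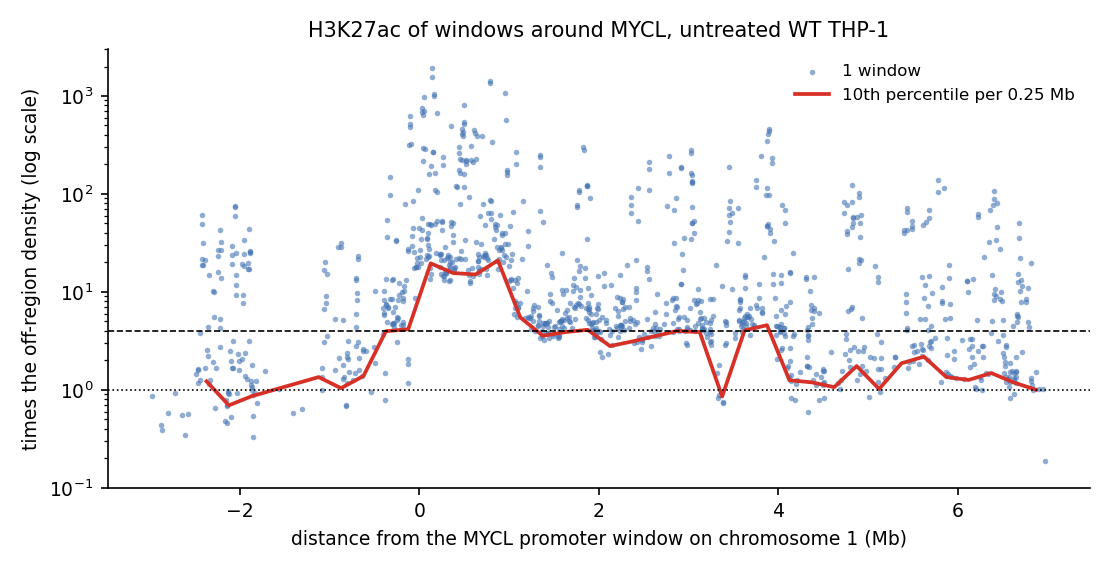
H3K27ac level of each window on chromosome 1 as times the density outside windows (log axis, mean of 2 libraries) against the distance from the MYCL promoter window in Mb, with the 10th percentile per 0.25 Mb as a line and dotted and dashed lines at 1 and 4 times. Between 40 and 41 Mb (0.1 to 1.1 Mb on the axis) the line rises well above both, and no window there falls below 5.56 times.

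The longest unbroken run of acetylated windows lay there too. It covered 235 consecutive windows over 1359830 bp at chr1:39776036-41135866, from OXCT2 to SCMH1. By number of windows, the next longest run had 37 over 123960 bp on chromosome 19 at TPM4 and RAB8A, and the third had 35 windows over 249203 bp at CCDC26 on chromosome 8. Runs of 31 windows at RREB1, 24 at BCL2, 23 at ETV6, 23 at ZFP36L2 and 22 at RNASE2 and RNASE3 were among the 20 longest.

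Outside this stretch the strongest proximal windows lay close together in level. CLIC1, which encodes an intracellular chloride channel, had 181.3 and 180.7 CPM at -799 bp from its start, and MEF2D, a MADS-box transcription factor of blood and muscle, had 175.6 and 177.5 CPM. GOLPH3 (a Golgi protein) had 163.7 and 171.4 CPM, PTGES3 (the HSP90 cochaperone p23) 160.6 and 172.4 CPM, and ARHGEF2 168.1 and 160.9 CPM. DOCK8, an exchange factor of leukocyte migration, had 168.1 and 159.4 CPM, and LST1, a myeloid membrane protein gene of the MHC region, 167.6 and 159.4 CPM. DENND4B, LOC401261 and NIPBL (the cohesin loader) completed the 10. From CLIC1 to NIPBL the means ran from 181.0 to 155.7 CPM, so several neighbours in this order differed by less than their spread between libraries.

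The strongest distal windows outside the stretch and outside repeats lay on several chromosomes, 4 of the first 8 on chromosome 1. LYST, which encodes the regulator of lysosome size mutated in Chediak-Higashi syndrome, had a window at -58821 bp from its start with 184.6 and 191.2 CPM. A window assigned to MIR4457, beside TERT (the catalytic subunit of telomerase), had 178.7 and 186.6 CPM, whereas the TERT promoter itself had 9.33 and 8.45 CPM. LOC101927851 and PP2672, neighbours on chromosome 1, had 178.3 and 171.2 CPM and 160.4 and 156.0 CPM. A window assigned to MRPS10 had 158.4 and 160.4 CPM, one 8041 bp after the start of CDKN2C (the inhibitor p18 of CDK4 and CDK6) had 155.1 and 146.2 CPM, and one near DNAJC5B had 140.7 and 155.8 CPM. The strongest window in CCDC26, a noncoding gene, had 151.0 and 144.5 CPM.

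To find regions with many strong windows, acetylated distal windows no more than 12.5 kb apart were joined. This gave 15581 stretches, of which 10128 (65.0%) held 1 window, 613 held at least 5 and 55 at least 10. The strongest 156 of them, 1%, held 14.3% of the summed level. Strong stretches were thus rare, as strong windows were.

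**Figure D3:**
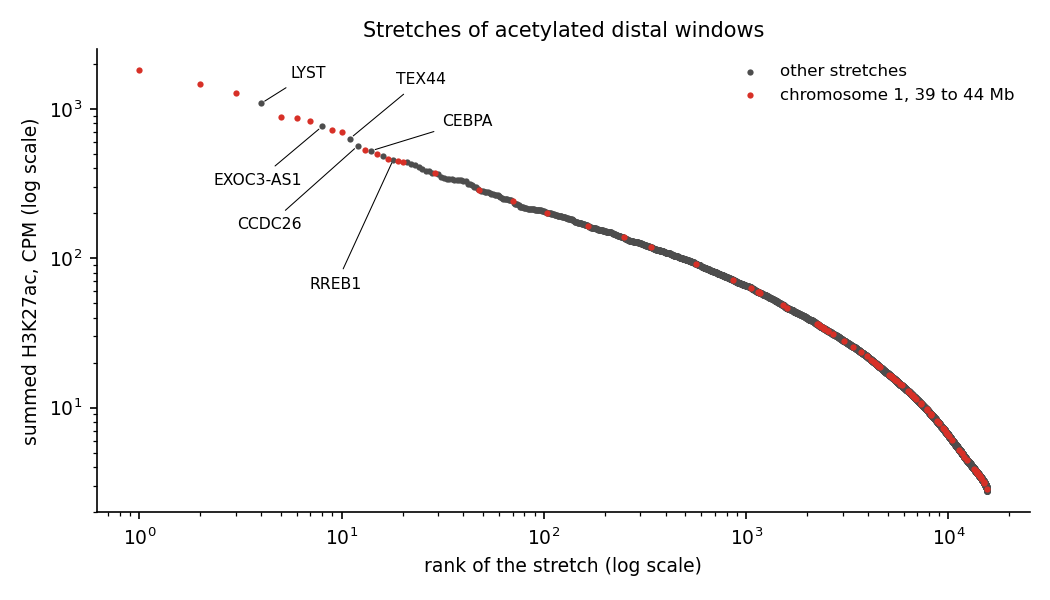
Summed H3K27ac level in CPM (mean of 2 libraries) of the 15581 joined stretches against their rank, both on log axes, with stretches on chromosome 1 from 39 to 44 Mb in red. The red points hold 8 of the 10 highest places, and LYST (1088 CPM) is the highest other stretch.

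The strongest stretch, 7 windows over 34443 bp in CAP1, summed to 1829 CPM in replicate 1 and 1792 CPM in replicate 2. Those at MIR6079, MFSD2A, SMAP2, RIMS3, LOC101929536 and HIVEP3 in the same part of chromosome 1 were also among the first 10. The highest elsewhere was LYST, with 17 windows over 93006 bp that summed to 1074 and 1102 CPM. EXOC3-AS1 and AHRR, the repressor of the aryl hydrocarbon receptor, shared 16 windows with 752.5 and 770.9 CPM. TEX44 and PTMA (prothymosin alpha, a small acidic nuclear protein) shared 22 windows with 616.1 and 648.6 CPM.

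The next stretch outside chromosome 1, in CCDC26, had only 6 windows over 27250 bp but summed to 579.9 and 548.9 CPM. It lay 1.79 Mb from the strongest proximal window of MYC, 2406 bp after the MYC start, which had 20.6 and 22.8 CPM. CEBPA, the C/EBP factor needed for granulocyte and monocyte progenitors, had 10 windows over 44990 bp with 519.2 and 528.2 CPM. Its strongest window, 34626 bp after the start, had 123.7 and 128.2 CPM, above the 38.9 and 35.2 CPM of the promoter. The single PROS1 window in satellite sequence came next, and RREB1, a zinc finger factor that acts with RAS signalling, had 23 windows with 451.0 and 462.6 CPM. OTULINL and SUMO1P1 followed, with means of 438.5 and 424.6 CPM, and a stretch at MIR4457 and TERT had 388.6 and 398.9 CPM.

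Counting windows instead of level brought up other genes. Non-overlapping distal windows were counted for the gene with the nearest TSS. Of 20581 genes with such a window, 9856 (47.9%) had at least 1 acetylated one, 1468 at least 5, 290 at least 10 and 28 at least 20. At a threshold of 8 times the outside density 682 genes had at least 5. RREB1 led with 40 of 47 distal windows acetylated in both libraries, and JARID2, which encodes a cofactor of the Polycomb complex PRC2, had 38 of 65. EDN2 with 33 of 40 and HIVEP3 with 27 of 43 lay in the dense stretch of chromosome 1. TEX41 had 26, and PTGER4 (a prostaglandin E2 receptor), BCL2 (the inhibitor of cell death) and LINC01108 had 25 each. SUMO1P1, LY86-AS1 and C1orf140 shared the next place with 24 each.

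A high count did not require a strong promoter. The promoter level was 50.0 and 47.7 CPM at RREB1, 40.03 and 43.6 CPM at JARID2, 45.6 and 44.2 CPM at PTGER4 and 42.0 and 44.6 CPM at BCL2. At EDN2, which encodes the peptide endothelin 2, it was only 3.93 and 3.21 CPM. Several of these genes lie in large intervals with few other genes, and some of the windows were far from the TSS, up to 380048 bp at JARID2 and 916584 bp at TEX41. A nearest TSS is an assignment by distance and does not show which gene a window acts on. With a limit of 100000 bp the count was 26 at RREB1, 11 at JARID2 and 3 at BCL2.

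Gene groups were compared by the strongest proximal window of each gene. Over the 17410 genes with a proximal window the median was 8.31 CPM, 66.5% were acetylated and 7.18% lay at or under background. The top 5% were 870 genes at 52.8 CPM or more. These shares are the background for each list, and no list was tested.

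**Figure D4:**
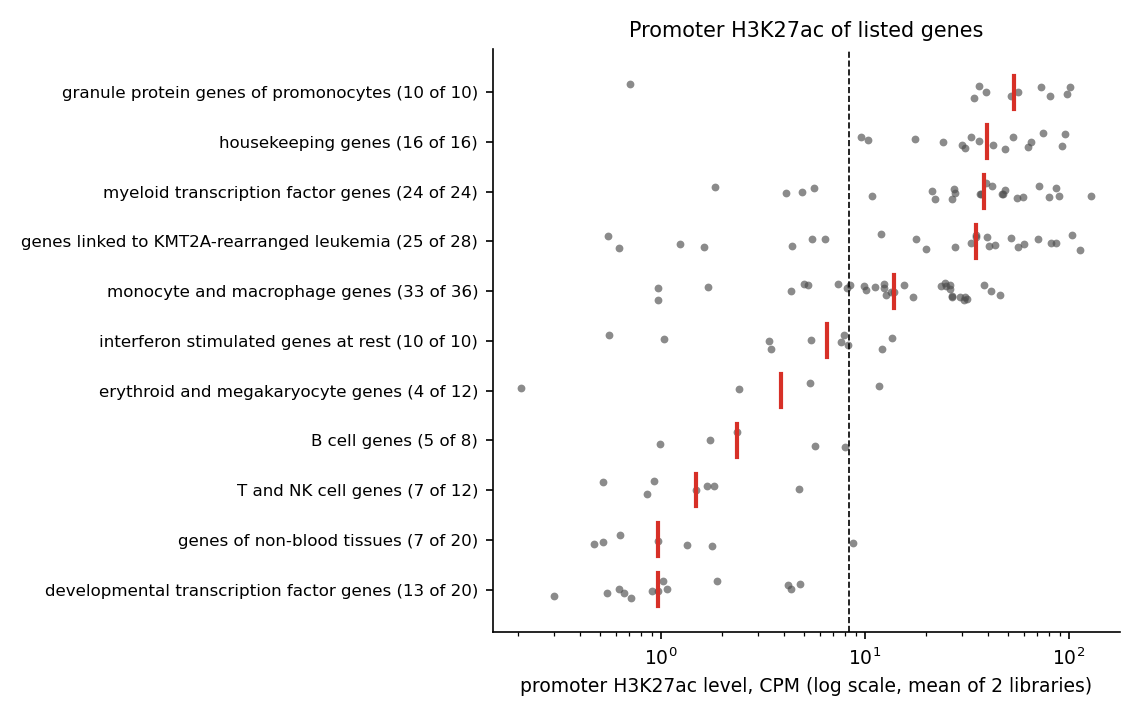
Promoter H3K27ac of listed genes in CPM (log axis, mean of 2 libraries), 1 grey point for each gene with a proximal window, the number of such genes of all listed genes in brackets, red bars for list medians and a dashed line for the median of all 17410 genes, 8.31 CPM. Granule protein, housekeeping, myeloid transcription factor and leukemia genes have medians of 34.8 to 54.0 CPM, and genes of other lineages and tissues lie mostly to the left of the line.

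Genes for granule proteins of promonocytes had the highest median, 54.0 CPM (50.2 and 57.8 in the libraries). Of 10 genes, 9 were acetylated and 5 were in the top 5%. AZU1 (azurocidin) had 103.4 and 99.01 CPM, RNASE2 (a secreted ribonuclease) 96.1 and 98.3 CPM, and PRTN3 (proteinase 3) 81.5 and 80.6 CPM. ELANE (neutrophil elastase) had 72.6 and 73.5 CPM and MPO (myeloperoxidase) 51.6 and 60.7 CPM. The AZU1 window lay at -2766 bp from its start and was in neither untreated WT peak list. Those of ELANE and MPO lay at -1598 and -1012 bp. With proximal set to 1000 bp the list median was 45.5 CPM. AZU1, PRTN3 and ELANE are neighbours on chromosome 19 between 824560 and 851111 bp. RNASE2 and RNASE3 are similar in sequence, and reads could be split between them. CST7, the inhibitor cystatin F, was the exception with 8 and 5.5 tags.

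The 150 bases before the starts of PRTN3 (RefSeq, GRCh38.p14, chr19:840849-840998) and RNASE2 (chr14:20955337-20955486), both on the plus strand and inside the measured windows, are shown because they hold myeloid motifs. Capitals mark a PU.1 and a C/EBP match in PRTN3 and a C/EBP match in RNASE2. Among 35116 promoters of this length, 1.46% held the PU.1 letters and 5.02% the C/EBP letters.
PRTN3: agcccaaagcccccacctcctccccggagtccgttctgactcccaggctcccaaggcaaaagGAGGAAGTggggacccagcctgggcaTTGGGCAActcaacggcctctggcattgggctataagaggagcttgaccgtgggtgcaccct
RNASE2: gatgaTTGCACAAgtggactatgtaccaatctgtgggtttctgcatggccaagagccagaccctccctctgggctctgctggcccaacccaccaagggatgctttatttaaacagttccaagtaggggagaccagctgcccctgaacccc

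Genes of myeloid transcription factors had a median of 38.1 CPM (38.2 and 38.5), close to the 39.4 CPM (37.4 and 42.1) of 16 housekeeping genes, all of which were acetylated. Of the 24 factors, 23 were acetylated and 7 were in the top 5%. GFI1, the repressor of granulocyte and stem cell programs, was the highest of all listed genes with 126.5 and 130.3 CPM. RUNX1, a core factor of blood formation, had 93.4 and 85.3 CPM, MYB, a factor of progenitors, 89.0 and 84.1 CPM, and CEBPD 81.3 and 78.4 CPM. SPI1 had 69.5 and 73.1 CPM, ZEB2 58.2 and 60.9 CPM and the ETS factor FLI1 57.4 and 53.7 CPM.

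Many of these factors also had acetylated distal windows. KLF4, a factor of monocyte differentiation, had 22 of 53 and a promoter of only 11.6 and 10.2 CPM. RUNX1 had 18 of 24, ETV6 18 of 21, GFI1 15 of 21 and IKZF1 12 of 23. For IRF8, the strongest window lay at -44986 bp from the start with 63.4 and 62.9 CPM, above the promoter at 27.2 and 26.2 CPM. Over the list 150 of 252 distal windows were acetylated, against 26186 of 104362 (25.1%) over all genes.

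Genes linked to KMT2A-rearranged leukemia had a median of 34.8 CPM (36.9 and 32.7), with 21 of 25 acetylated and 7 in the top 5%. JMJD1C (a histone demethylase family protein) had 113.5 and 112.4 CPM, SENP6 (a SUMO protease) 109.0 and 97.6 CPM and LMO2 (a LIM-domain bridging factor) 92.2 and 80.9 CPM. ZNF521 had 83.3 and 80.6 CPM, ZFP36L2 71.3 and 69.6 CPM, the cell-cycle kinase gene CDK6 63.9 and 55.8 CPM and HOXA10 56.5 and 55.6 CPM. The cytokine receptor gene FLT3 was just under the top 5% with 54.0 and 49.3 CPM. With the window closest to the TSS in place of the strongest, the list median was 17.99 CPM.

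The exceptions in this list were MEIS1, MECOM, MLLT3 and KIT. MEIS1, the homeobox partner of HOXA9, had 3 and 8 tags (0.552 CPM), and MECOM, a stem cell zinc finger factor, had 6 tags in each library and lay at or under background. MLLT3, the fusion partner gene, had 8.5 and 16 tags at its own promoter and no acetylated distal window, whereas KMT2A had 19.3 and 16.1 CPM. KIT had 1.42 and 1.85 CPM at the promoter and 2 of 11 acetylated distal windows. The MEIS1 promoter was open in both WT peak lists. Its 150 bases before the start (RefSeq, GRCh38.p14, chr2:66434975-66435124, plus strand) hold an ETS match on the minus strand, in capitals, searched as CCGGAAGT and found in 2.98% of promoters of this length.
MEIS1: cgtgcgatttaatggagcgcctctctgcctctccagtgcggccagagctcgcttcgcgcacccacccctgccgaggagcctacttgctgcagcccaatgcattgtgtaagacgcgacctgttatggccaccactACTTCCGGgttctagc

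BCL2 had the most acetylated distal windows of the leukemia list, 25 of 35, and its strongest one, 219132 bp from the start, had 92.1 and 94.3 CPM. JMJD1C had 21 of 48, ZNF521 16 of 31, LMO2 10 of 16 and PBX3, which had no proximal window in the table, 10 of 22. FLT3 had 7 of 7. The list had 135 acetylated distal windows of 283 in all.

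The HOXA cluster, whose genes set position along the body axis and whose late members stay on in this leukemia, was divided. Of 13 windows, some of them overlapping, from HOXA9 to HOXA13 and HOTTIP, 11 were acetylated, with a median of 24.7 CPM and a maximum of 56.0 CPM at HOXA10. The HOXA9 promoter had 36.9 and 32.7 CPM. Of the earlier genes, HOXA4 had 11.8 and 12.1 CPM, HOXA5 6.16 and 6.61 CPM and HOXA7 4.58 and 4.23 CPM. Beyond HOTTIP the level dropped, and the nearest windows assigned to EVX1 were not acetylated.

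Monocyte and macrophage genes had a lower median, 13.9 CPM (14.7 and 13.5). Of 33 genes with a proximal window 30 were acetylated, but none was in the top 5%. MNDA (a nuclear antigen of myeloid cells) was highest with 48.8 and 42.6 CPM, followed by LAPTM5 (a lysosomal membrane protein) with 38.6 and 44.1 CPM and LILRB4 (an inhibitory receptor) with 37.3 and 39.01 CPM. The defining markers CD33 and ITGAM had 12.8 and 9.67 CPM and 11.7 and 13.0 CPM. CD14, the coreceptor for lipopolysaccharide, had only 5.24 and 3.40 CPM, though its 3 distal windows were all acetylated.

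CLEC7A, CD163 and MSR1, receptors of mature macrophages and dendritic cells, were not acetylated at the promoter, with 12.5 and 21, 11 and 7.5, and 6.5 and 12.5 tags. CSF1R, the receptor for macrophage colony-stimulating factor, had 4.64 and 5.88 CPM in its strongest proximal window, at -2526 bp from the start. It had 7 of 15 acetylated distal windows, the strongest with 18.9 and 20.5 CPM. CD86 also had 7, FCGR1A 5 of 6 and ITGB2 5 of 7. FCGR1A and FCGR2A have close copies in the genome, so their reads could be split. FCN1, CYBB and MRC1 had no proximal window, and CYBB had 5 of 12 acetylated distal windows.

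Genes of other lineages and tissues were low in their proximal windows. Of 7 T and NK cell genes with a proximal window 1 was acetylated (EOMES) and the median was 1.49 CPM. Of 5 B cell genes 2 were (BLK and CD79A, median 2.37 CPM). Of 12 erythroid and megakaryocyte genes 4 had a proximal window and 2 of these were acetylated, EPOR and TAL1. Of 7 genes of non-blood tissues 1 was acetylated (KRT8, median 0.971 CPM), and MAP2 and NPPA lay at or under background. Of 13 developmental transcription factor genes 3 were acetylated (LHX2, SIM1 and OLIG2), the median was 0.961 CPM and SOX2 lay at or under background. A gene without a proximal window was not counted, so these counts cover only part of each list. Not all counted windows were open in untreated WT cells: those of GNLY, PAX5 and CDH1 were in neither WT peak list.

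Part of the distal windows of these lists was acetylated, where the share over all genes was 25.1%. The numbers were 25 of 84 for T and NK cell genes and 9 of 41 for B cell genes. They were 1 of 17 for erythroid and megakaryocyte genes, 9 of 67 for non-blood genes and 9 of 73 for developmental factor genes. Some single windows were strong. A window assigned to FCRL5 had 95.9 and 94.8 CPM at 148769 bp from its TSS, one assigned to BCL11B 46.9 and 45.3 CPM at 196388 bp, and one assigned to GNLY 28.7 and 27.9 CPM at 11479 bp. The GNLY and BCL11B promoters themselves were at 1.47 and 1.89 CPM and at 1.42 and 1.55 CPM.

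Interferon stimulated genes, given here at rest, had a median of 6.50 CPM, below the 8.31 CPM of all genes with a proximal window. Of 10 genes, 8 were acetylated without interferon, against 66.5% of all genes, and 2 lay above the median of all genes. OAS1 had 15.2 and 11.8 CPM, MX1 13.7 and 10.5 CPM and ISG15 6.71 and 9.09 CPM. USP18, which trims ISG15 from proteins and is intact in these cells, had 8.29 and 8.16 CPM. IFI44L was not acetylated, with 9.5 and 10.5 tags, and RSAD2 lay at or under background with 4 and 7 tags. With the window closest to the TSS the list median was 3.43 CPM.

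The sequence of open windows changed with their level. Windows open in both WT lists were divided into 5 groups of equal size by mean CPM, for distal and proximal windows apart. Among distal windows the share with a C/EBP match rose from 13.9% in the lowest group to 24.1% in the highest. AP-1 matches (TGANTCA) went from 9.65% to 15.8%, PU.1 from 5.78% to 9.21% and RUNX (TGTGGTT) from 7.10% to 9.40%, and PU.1, RUNX and AP-1 were nearly level over the upper 3 groups. CTCF went the other way, from 13.5% in the lowest group over 9.10%, 4.03% and 1.38% to 0.73% in the highest.

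**Figure D5:**
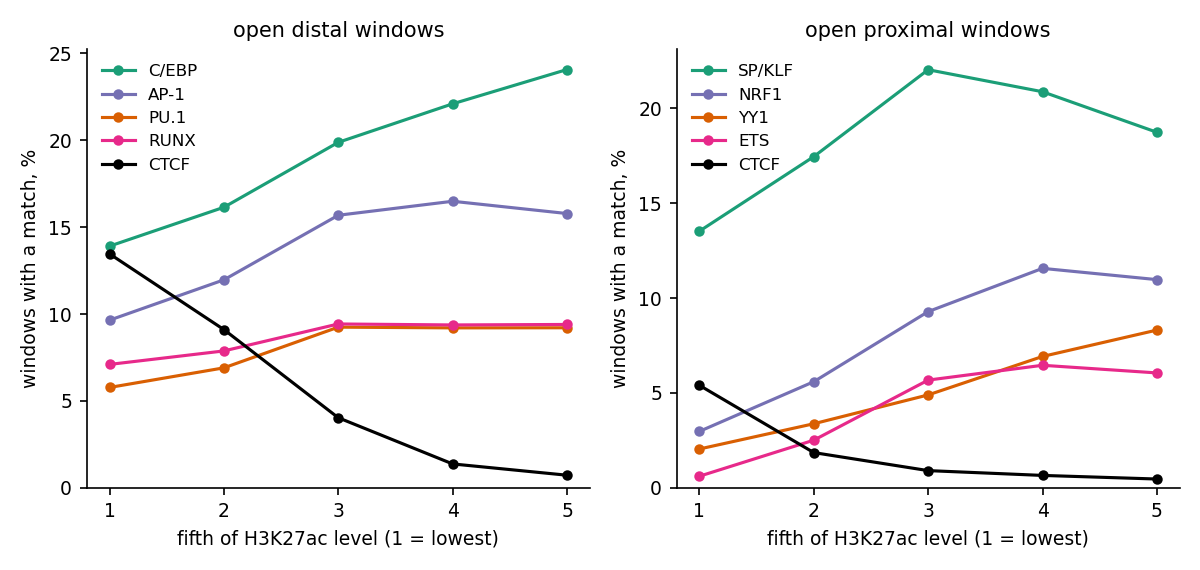
Share of windows with a motif match in the central 200 bp (y axis, %) by group of H3K27ac level (x axis, 1 lowest, 5 highest), for distal (left) and proximal (right) windows open in both WT ATAC-seq lists. The CTCF line falls from 13.5% to 0.73% in distal windows, while the C/EBP line rises from 13.9% to 24.1%. In proximal windows the YY1 line rises over all 5 groups from 2.05% to 8.32%.

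Read per motif, the 4070 open distal windows with a CTCF match had a median of 0.728 CPM, 6.39% were acetylated and 32.3% lay at or under background. The 66833 without had 1.95 CPM, 38.7% and 12.4%. Their opening scores were alike, with medians of 14.7 and 13.6. The 13626 open distal windows with a C/EBP match had 2.49 CPM with 44.6% acetylated, against 1.65 CPM and 35.0% without. For PU.1 the medians were 2.31 CPM with and 1.75 CPM without a match.

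Open proximal windows held other motifs. From the lowest to the highest group, NRF1 (GCGCANGCG) went from 2.98% to 11.0%, ETS from 0.61% to 6.06% and YY1 (AANATGGC) from 2.05% to 8.32%. SP/KLF (GGGGCGGGG) was already frequent in the lowest group (13.5%), reached 22.04% in the middle group and was 18.7% in the highest. Of the 1010 open proximal windows with an ETS match 93.4% were acetylated, with a median of 16.1 CPM, against 69.2% and 8.66 CPM without. CTCF fell here as well, from 5.40% to 0.46%. The median GC content of the central 200 bp went from 63.8% in the lowest group to 67.5% in the highest. Its part in the motif shares was not tested.

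Of the 94590 windows open in both WT lists, 10972 had no H3K27ac above background, of which 9612 were distal and 1360 proximal. The share fell with the opening score, which was merged over all 8 ATAC-seq libraries. The share went from 20.97% of distal windows with the lowest scores over 15.4% and 8.15% to 2.51% of those with the highest. The 4 groups were cut at equal numbers of open windows. In the highest group the 232 distal windows without the mark held a CTCF match in 19.4%, against 1.77% of the 6672 acetylated ones, and a PU.1 match in 2.16%, against 9.17%. Over all score groups, the 9612 open distal windows without the mark lay farther from a TSS than the 26126 acetylated ones. The median distances were 40095 bp and 27132.5 bp.

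At promoters the combination was rarer, with 5.74% of open proximal windows against 13.6% of open distal ones. By gene only the strongest proximal window was taken, which lowers the share. Of 11854 coding genes for which it was open in both WT lists, 464 (3.91%) lay at or under background. Of these, 363 were open in all 8 ATAC-seq lists. The highest opening scores among them were at FAM72A with 4 and 5 tags, WIPI1 (an autophagy protein) with 4 and 6.5 tags and CA5B (a mitochondrial carbonic anhydrase) with 5 tags in each library. PWP2, TPPP, CFAP99, C1QL1, OTUD7A and MAP2 followed, with mean levels of 0.315 to 0.567 CPM. FAM72A has close copies in hg38, and reads there could be lost or split. The PWP2 window lay at chr21:5154352-5155352. It was not searched for copies, so reads could be lost or split there too. The GC content of the central 200 bp was 69.5% or more at CA5B, PWP2, TPPP, CFAP99, C1QL1, OTUD7A and MAP2.

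Genes with the most windows at or under background, were counted without chromosome Y and among non-overlapping windows. DLG2, a scaffold of synapses, had 20 of 54, KLHL29 18 of 33, DIRC3-AS1 16 of 27, and NRP2, a receptor for semaphorins, 15 of 18. LINC00290 had 15 of 61, with 16 others acetylated, and RASGEF1B 15 of 24. ANK3 (ankyrin G) had 14 of 24 and OR4E1 14 of 17. Over all non-overlapping windows 17.3% lay at or under background, so a gene with many windows can have a high count. DAB2IP (13 of 34) and EPHA3 (13 of 29) were among 8 genes with 13 each, of which LINC01239 had 13 of 13. Of the 20 in DLG2, 11 were open in both WT lists, as were 8 of the 15 in NRP2.

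Some parts of the genome had windows but no acetylated one over several Mb, and not all of these windows were open in untreated WT cells. The widest run spanned the centromere of chromosome 9, 24 windows over 19460537 bp, and those on chromosomes 11, 18 and 2 that followed also crossed or touched a centromere. In chromosome arms, 27 windows (15 of them open in both WT lists) over 5023223 bp on chromosome 7 around AUTS2, GALNT17 and CALN1 had none, with a median of 0.653 times the outside density. On chromosome 4, 54 windows over 4838309 bp around CCSER1 had none either. Of these, 45 lay at or under background and 17 were open in both WT lists. On chromosome 16, 29 windows over 4327862 bp held the cadherin genes CDH8, CDH11 and CDH5. AUTS2 is known for a role in neurons.

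A run of 66 windows over 4225109 bp on chromosome 9, from 21159869 to 25384978 bp, also had no acetylated window, and 20 of the 66 were open in both WT lists. Inside it lay an interval of just over 1 Mb, chr9:21268564-22303763, with no window at all. It holds 11 coding genes, among them the interferon genes IFNA2 and IFNE, MTAP (of methionine salvage) and the cell-cycle inhibitors CDKN2A and CDKN2B, the most of any of the 34 intervals of at least 1 Mb without a window. In the 1 Mb before it 18 of 60 windows were acetylated, up to 34.5 times the outside density. In the 1 Mb after it 0 of 29 were, 25 lay at or under background and the highest was 1.29 times. Whether the DNA of the interval is present in these cells was not tested.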

How the data were processed

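H3K27ac ChIP-seq libraries of untreated WT THP-1 cells (replicates 1 and 2) were analysed. The authors aligned read pairs with Bowtie2 (default settings, hg38), and HOMER then gave the tags per 1000 bp window around each merged peak of the ATAC-seq libraries. Tool versions are not given in the sources used here. The deposited values are raw estimated counts in steps of 0.5 tags, used unrounded. The authors' peak score and the list of ATAC-seq libraries in which a peak was called came with each window. The table held 0 value columns that could not be assigned to a sample.

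CPM was computed per library over 151654 windows. The density outside windows was the library total minus the tags in 126079 non-overlapping windows, over the remaining length of 24 chromosomes. No filter on low values and no test was applied, and errors are SDs of 2 libraries. As a control of scale, edgeR 4.0.16 (R 4.3.3) gave TMM factors. Python 3.11.15, pandas 2.3.3 and pysam 0.24.0 were used. The outside density, the class calls, the choice of non-overlapping windows, the joining and the motif search were tested on simulated data with known answers. The other steps were not. Motifs were exact matches. Promoter sequences were matched by symbol to RefSeq, and all 8 retrieved matched hg38 base for base.

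Named were the 10 strongest proximal and distal windows, the 10 genes with the most acetylated distal windows and the 10 strongest stretches, each also without chromosome 1 from 39 to 44 Mb, with list members in the top 5%, at or under background or with the most distal windows. Some of these items are not reported here. Other windows and genes were named after their values were seen, and so was that part of chromosome 1. The members, lists and thresholds were chosen with earlier results of these data known. Alternatives were other thresholds, window overlap, scaling, TSS distance, joining gap, motif width and single libraries. Intervals without windows were taken from 200000 bp up, and chromosome Y was left out of the lists of regions without acetylation.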

Additional observations from a re-analysis of the deposited data

How the results depend on the processing

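Of 115 alternative values for 25 results, 58 moved by less than the spread between libraries (for counts, by less than 1.5 times) and 57 moved by more. Changes of direction were not checked. With only 2 libraries this spread is small, so many of the shifts are too. Windows at or under background numbered 4920 with a threshold of 0.5 times and 60295 with 2 times the outside density, and 35538 to 35608 with 1 library alone. With proximal set to 1000 bp, 70.8% of proximal and 29.2% of distal windows were acetylated. With 1 library, these shares were 65.3% to 65.8% and 31.1% to 31.3%, and without chromosome 1 from 39 to 44 Mb, an alternative chosen after seeing the data, 28.3% of distal windows were. The strongest 1% held 15.7% of tags over non-overlapping windows, 10.3% among windows with at least 10 tags in both libraries and 12.6% without that part of chromosome 1. The median of acetylated windows, 9.83 CPM, was 3.62 on library totals, 9.20 with TMM factors of all 8 H3K27ac libraries and 9.82 to 9.86 with 1 library. Genes with at least 5 acetylated distal windows fell to 682 at 8 times the density.

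With the window closest to the TSS, list medians were 12.6 CPM for monocyte, 27.5 for myeloid factor, 17.99 for leukemia, 0.746 for developmental and 3.43 for interferon stimulated genes. Within 1000 bp of a TSS they were 45.5 for granule, 36.8 for myeloid factor, 1.20 for T and NK cell and 1.35 for non-blood genes. With 1 library they spanned 13.5 to 14.7 for monocyte, 38.2 to 38.5 for myeloid factor, 0.873 to 1.26 for non-blood, 1.09 to 1.12 for developmental and 5.90 to 6.35 for interferon stimulated genes. Shares of distal windows with a match were given for the central 200 bp. In the central 100 and 500 bp, CTCF matches were in 8.65% and 9.15% of those at or under background and 0.656% and 0.936% of acetylated ones. PU.1 matches were in 4.36% and 7.27% against 5.69% and 10.7%, and C/EBP in 8.96% and 28.7% against 14.4% and 34.8%. With 1 library the CTCF shares were 8.33% to 8.38% and 0.880% to 0.910%, PU.1 5.86% to 5.88% and 8.27% to 8.32%, and C/EBP 15.6% to 15.9% and 21.95% to 21.97%. Without that part of chromosome 1, acetylated distal windows held CTCF in 0.804% and C/EBP in 22.2%. No paired analysis was possible because only 1 group was described. Tag depth limits the order of windows near background.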

Other observations

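By the class of annotation that the authors' tool gave to the centre of each window, promoters had a median of 10.1 CPM and 72.6% were acetylated. Windows in 5′ UTRs had 7.598 CPM and 65.0%, introns 1.59 CPM and 33.8%, and intergenic windows 1.18 CPM and 26.5%. CpG islands outside promoters lay between, with 4.59 CPM and 55.9%. Among repeats, windows centred on Alu elements had 1.87 CPM, L1 elements 1.43 CPM and ERVK elements 0.858 CPM, with 35.0%, 30.6% and 16.1% acetylated. The 381 satellite windows had 0.467 CPM, and 57.5% of them lay at or under background although the PROS1 window, the strongest distal one outside chromosome 1, is annotated as a satellite. Reads from repeats can be placed in the wrong copy, so these levels are less certain than those of single-copy sequence.

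Noncoding genes had weaker promoters than coding ones. The 3104 noncoding genes with a proximal window had a median of 2.50 CPM with 47.2% acetylated, and the 14306 coding genes 9.81 CPM with 70.6%.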
